A study of Mus musculus with 6 samples.

Results

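The mitochondrially encoded mRNAs of respiratory complexes III, IV and V were mt-Co1, mt-Co2 and mt-Co3, which encode the core subunits of cytochrome c oxidase (complex IV), mt-Cytb, which encodes cytochrome b of complex III, and mt-Atp8 and mt-Atp6, which encode subunits of the ATP synthase (complex V). These 6 mRNAs were chosen by gene identifier among 18437 protein-coding mRNAs listed in at least 1 library. Of the 6, the 4 mRNAs mt-Co1, mt-Co2, mt-Atp8 and mt-Atp6 had values in all 6 libraries, and mt-Co3 and mt-Cytb had no row in the tables used and were not analysed here. The data were ribosome profiling (Ribo-seq) reads, which are short RNA fragments left after RNase I digestion of tissue lysates in cycloheximide, from untreated wild-type C57BL/6J mice at 4 weeks of age. There was 1 library for each label, which were heart, lung, kidney, brain, colon and small intestine. The labels do not give the number or sex of the animals behind a library, and no test between tissues was therefore possible. Every interval below covers counting error only.

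The mitochondrial genome is a small circular DNA that is transcribed into long precursors and cut into separate mRNAs, most of them at the tRNAs that lie between the genes. Its mRNAs carry almost no leader, are translated by mitochondrial ribosomes with their own genetic code, and yield hydrophobic subunits that are inserted into the inner membrane. There they are assembled with subunits that the nucleus encodes and cytosolic ribosomes make, so that complexes III, IV and V each hold products of both genomes. Complexes III and IV pass electrons to oxygen and pump protons, and complex V uses the proton gradient to make ATP. Heart muscle is known for its dense mitochondria. The drug in the lysis buffer, cycloheximide, acts on cytosolic and not on mitochondrial ribosomes.

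The ends of the 6 genes are shown because the members with and without a row differ there and because neighbouring genes overlap. All lie on the forward strand of the mitochondrial chromosome of GRCm39, each in 1 exon that is coding throughout, at chrM:5328-6872 for mt-Co1, chrM:7013-7696 for mt-Co2, chrM:7766-7969 for mt-Atp8, chrM:7927-8607 for mt-Atp6, chrM:8607-9390 for mt-Co3 and chrM:14145-15288 for mt-Cytb. In the sequences of the last 30 bases, given 5′ to 3′ from the GRCm39 assembly, capitals mark the stop codon or the part of it that the genome encodes.
mt-Co1: gaggaaccaacctatgtaaaagtaaaaTAA
mt-Co2: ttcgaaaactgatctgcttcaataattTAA
mt-Atp8: tatttgcctcattcattaccccaacaaTAA
mt-Atp6: gtaagcctatatctacatgataatacaTAA
mt-Co3: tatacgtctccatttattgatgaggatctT
mt-Cytb: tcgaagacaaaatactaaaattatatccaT
The 4 mRNAs with a row end in a full TAA. The genes of mt-Co3 and mt-Cytb end in a single T, which polyadenylation of the mRNA is known to complete to a stop codon, and their annotated coding sequences (CDSs) of 784 and 1144 bases are not multiples of 3. The CDS lengths written in all 18437 row names were multiples of 3. The complex I mRNA mt-Nd4 had no row either, and why these mRNAs had none was not tested.

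The mt-Atp8 and mt-Atp6 frames overlap on the same RNA, and the junction is shown because reads inside it belong to both. At chrM:7909-7987 the first capitals mark the start codon of mt-Atp6 and the second the stop codon of mt-Atp8.
mt-Atp8 and mt-Atp6 junction: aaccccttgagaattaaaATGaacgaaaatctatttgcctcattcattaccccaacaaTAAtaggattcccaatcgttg
The shared stretch covers 43 bases (chrM:7927-7969), and 15 of the 176 windows of 29 bases in mt-Atp8 and of the 653 in mt-Atp6 occurred in the other gene. No window of mt-Co1 or mt-Co2 occurred in another of the 18306 listed transcripts that could be matched to the annotation. The nuclear genome holds exact copies of mt-Co2 (chr1:24653963-24654646), mt-Atp8 (chr1:24653690-24653893) and mt-Atp6 (chr1:24653052-24653732) on the reverse strand of chromosome 1, and no exact full-length copy of mt-Co1 was found. As the authors aligned reads to mRNAs and not to the genome, a read from such a copy would be counted on the mitochondrial mRNA, and this was not tested.

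Of the 6 tissue labels, 4 did not match the marker mRNAs, so each library is named here by its label (the brain-labelled library and so on), and a tissue name used alone for a library is also its label. All 3 heart markers and all 3 lung markers were highest in the libraries with these labels, with summed densities of 30711 and 60275 RPKM (reads per kilobase of CDS, scaled to the total reads on CDSs). The 3 small intestine markers were highest in the brain-labelled library (summed 27672 RPKM, against 343 RPKM in the small intestine-labelled library), and the 3 brain markers in the small intestine-labelled library (818 RPKM, against 25.3 RPKM in the brain-labelled library, where the defining astrocyte mRNA Gfap was at 0 reads). The 3 kidney markers were highest in the colon-labelled library (18523 RPKM, against 15.8 RPKM in the kidney-labelled library), and the 3 colon markers in the kidney-labelled library (3043 RPKM, against 1.43 RPKM in the colon-labelled library). The libraries held 4504853 to 10635031 reads on CDSs. A single nuclear-encoded mRNA, Kri1, took 0.400% (lung) to 22.1% (kidney) of these reads, which lowers the RPKM of every other mRNA in a library where it is high.

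Among the complex IV subunits, mt-Co1 encodes the catalytic subunit in which oxygen is reduced. Its density was 9638 RPKM in the heart-labelled library (95% exact Poisson interval 9584 to 9692), 6213 RPKM in the kidney-labelled library, 4495 RPKM in the colon-labelled library, 3538 RPKM in the small intestine-labelled library, 2714 RPKM in the brain-labelled library and 1097 RPKM in the lung-labelled library (1078 to 1116). The intervals of no neighbours in this order overlapped. The highest value was 8.79-fold the lowest, the widest range of the 4 mRNAs. It rested on 13074 to 121613 reads per library. In bulk tissue, fewer cells with many mitochondria and less mitochondrial mRNA per cell cannot be told apart, nor can the amount of an mRNA and the ribosomes on it, since only Ribo-seq reads were analysed here.

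The other listed complex IV mRNA, mt-Co2, encodes the subunit that receives electrons from cytochrome c. Its density was 2259 RPKM in the heart-labelled library, 1984 RPKM in the colon-labelled library, 1516 RPKM in the kidney-labelled library, 1059 RPKM in the small intestine-labelled library, 775 RPKM in the brain-labelled library and 401 RPKM in the lung-labelled library. Heart was again highest and lung lowest, here by 5.63-fold, while the libraries labelled colon and kidney changed places against their order for mt-Co1. No Poisson intervals of neighbours overlapped, with 2112 to 12587 reads per library.

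Of the complex V pair, mt-Atp6 encodes the membrane subunit through which protons pass. Its density was 36338 RPKM in the heart-labelled library, 30460 RPKM in the kidney-labelled library, 18714 RPKM in the brain-labelled library, 16311 RPKM in the colon-labelled library, 14382 RPKM in the small intestine-labelled library and 8268 RPKM in the lung-labelled library. It had the narrowest range of the 4 mRNAs, 4.39-fold between heart and lung. It was also among the densest mRNAs of any kind, at place 2 of those with reads in the libraries labelled kidney and small intestine, 3 in heart, 4 in colon, 6 in brain and 7 in lung. The order of its 2 highest libraries depended on Kri1: with reads on Kri1 left out of the total, mt-Atp6 reached 39112 RPKM in the kidney-labelled library and 36721 RPKM in the heart-labelled library.

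The second complex V mRNA, mt-Atp8, encodes a small membrane subunit of the ATP synthase that is needed for its assembly. Its density was 915 RPKM in the kidney-labelled library (from 1395 reads), 648 RPKM in the colon-labelled library, 395 RPKM in the heart-labelled library, 320 RPKM in the small intestine-labelled library (293 to 350), 285 RPKM in the brain-labelled library (263 to 308) and 155 RPKM in the lung-labelled library (136 to 176). It was the only listed member that was not highest in heart, where it came after the libraries labelled kidney and colon. The values of the libraries labelled small intestine and brain did not differ beyond counting error. These values rested on 241 to 1395 reads, the fewest of the 4 mRNAs.

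**Figure D1:**
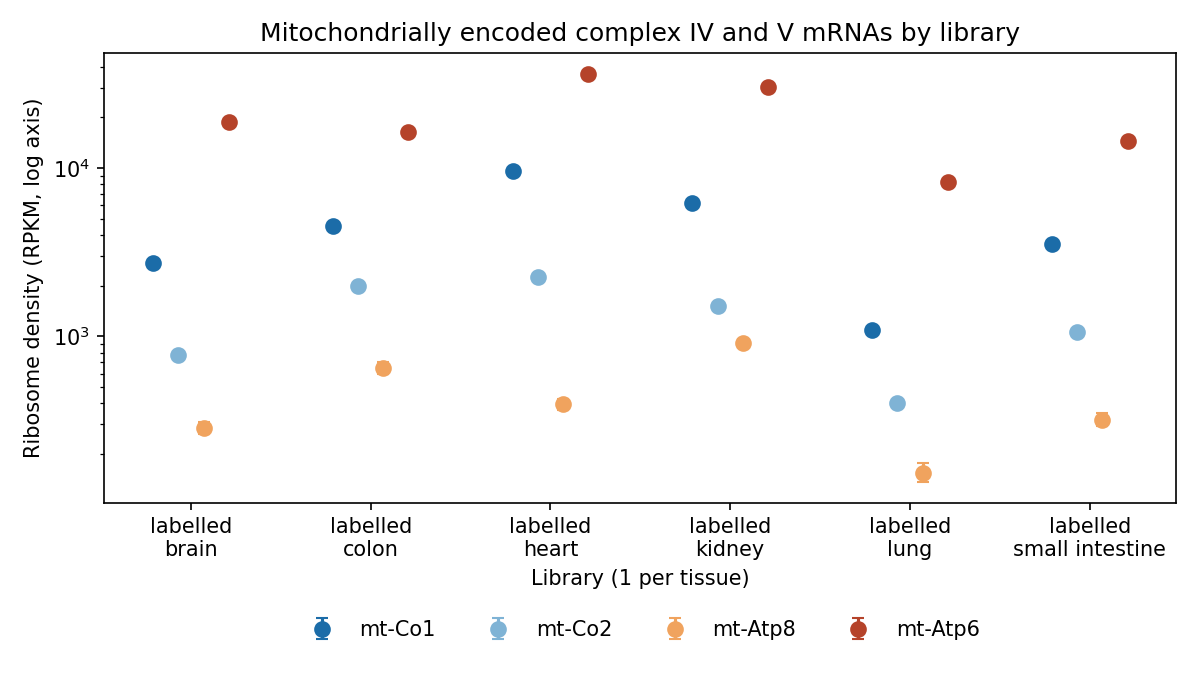
Density of the 4 listed mRNAs in RPKM (log axis) in each of the 6 libraries, 1 point per mRNA and library, with exact 95% Poisson intervals that are mostly smaller than the points. The lung-labelled library holds the lowest point of each mRNA, and the kidney-labelled library holds the highest mt-Atp8, at 915 RPKM.

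The lung-labelled library was lowest for all 4 mRNAs under RPKM, under RPKM without Kri1 and with size factors taken from nuclear-encoded mRNAs, and mt-Atp8 was highest in the kidney-labelled library under all 3. The summed density of the 4 was 48629 RPKM in heart and 9921 RPKM in lung, a ratio of 4.90, which rests on the 2 libraries whose labels the markers matched. The ratio was 7.63 with size factors. In the lung library the 3 hemoglobin mRNAs, markers of blood, summed to 390 RPKM, against 0 to 40.9 RPKM in the other 5 libraries, with all 3 at 0 reads in the small intestine-labelled library. The part of blood in the lung values was not tested.

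As a share of all reads on CDSs, the 4 mRNAs took 4.11% in the heart-labelled library (95% Wilson interval 4.10 to 4.13%), 3.14% in the kidney-labelled library (3.13 to 3.16%), 1.95% in the colon-labelled library (1.93 to 1.96%), 1.75% in the brain-labelled library (1.74 to 1.75%), 1.60% in the small intestine-labelled library (1.59 to 1.61%) and 0.760% in the lung-labelled library (0.754 to 0.766%). No Wilson intervals overlapped. Reads on Kri1 made up 22.1% of the kidney-labelled library and 1.04% of the heart-labelled library, and without them the shares of these libraries were 4.04% and 4.15%. The complex IV pair took 0.196% (lung) to 1.64% (heart) of reads and the complex V pair 0.564% (lung) to 2.47% (heart), most of the latter on mt-Atp6.

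**Figure D2:**
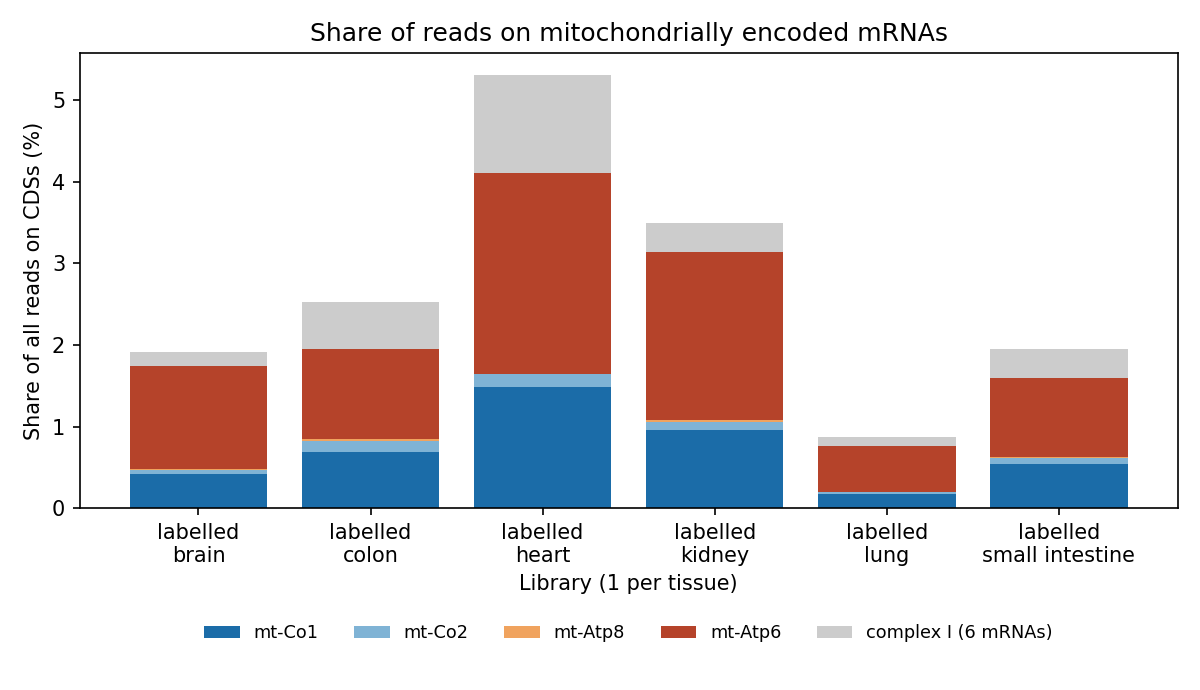
Share of all reads on CDSs (percent, stacked bars from 0) taken by the 4 listed mRNAs and by the 6 listed mitochondrially encoded complex I mRNAs in each library. The coloured parts sum to 4.11% in the heart-labelled library and 0.760% in the lung-labelled library, and mt-Atp8 is barely visible at this scale.

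Each mRNA was next set against the median of the other 5 libraries, and a difference of at least 2-fold was counted. In the heart-labelled library 3 of the 4 mRNAs were at least 2-fold higher, mt-Co1 by 2.72-fold, mt-Atp6 by 2.23-fold and mt-Co2 by 2.13-fold, and mt-Atp8 stood at 1.23-fold, beside 27.1% of all mRNAs. In the lung-labelled library all 4 were lower, at 0.244 (mt-Co1), 0.265 (mt-Co2), 0.393 (mt-Atp8) and 0.442 (mt-Atp6) of the median of the others, beside 28.0% of all mRNAs. Only mt-Atp8 was at least 2-fold higher in the kidney-labelled library (2.86-fold) and in the colon-labelled library (2.02-fold). None passed the fold in the libraries labelled brain and small intestine. Without reads on Kri1, mt-Co2 stood at 1.85-fold in heart and mt-Atp8 at 1.87-fold in the colon-labelled library, both under the threshold, and mt-Atp6 reached 2.24-fold in the kidney-labelled library. In the brain-labelled library mt-Co2, at 0.512 of the median of the others, stood at 0.407 without Kri1 and at 0.427 with size factors, past the threshold in both.

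The background was counted over the 13521 mRNAs with a mean of at least 1 RPKM. Of these, 27.1% were at least 2-fold higher in the heart-labelled library, 25.2% in the kidney-labelled library, 27.1% in the colon-labelled library, 25.4% in the brain-labelled library, 34.8% in the lung-labelled library and 32.3% in the small intestine-labelled library. The shares at least 2-fold lower were 28.0% in the lung-labelled library, 26.7% in the heart-labelled library, 24.4% in the kidney-labelled library, 27.9% in the colon-labelled library, 35.0% in the brain-labelled library and 27.7% in the small intestine-labelled library. The 1 of 4 in the libraries labelled kidney and colon was thus near the background, and 3 of 4 in heart and 4 of 4 in lung lay above it at this threshold. At 3-fold, 0 of 4 were higher in heart, beside 20.3% of all mRNAs, and 2 of 4 were lower in lung, beside 24.6%. The 4 mRNAs come from the same genome and precursor and are not independent of each other. The median difference of the 4 in log2(RPKM + 1) was 1.12 in heart and -1.63 in lung, against 0.00 and 0.23 over all mRNAs.

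With heart set against lung alone, all 4 mRNAs were at least 2-fold higher in heart, by 8.79-fold for mt-Co1, 5.63-fold for mt-Co2, 4.39-fold for mt-Atp6 and 2.54-fold for mt-Atp8. Of the 11647 mRNAs with a mean of at least 1 RPKM over this pair, 25.1% were at least 2-fold higher in heart. This comparison uses no library whose label was in doubt, and it was chosen after seeing the data.

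Within a library, the densities of the 4 mRNAs can be compared per CDS length without regard to depth or to Kri1. The order was mt-Atp6, mt-Co1, mt-Co2 and mt-Atp8, from highest to lowest, in 6 of 6 libraries. Relative to the geometric mean of the 4 in the same library, the median log2 density was 3.02 for mt-Atp6, 0.60 for mt-Co1, -1.03 for mt-Co2 and -2.58 for mt-Atp8. The order along the mRNAs did not follow CDS length, as mt-Co2 and mt-Atp6 have CDSs of 681 and 678 bases without the stop codon and differed by 8.22-fold to 24.1-fold in density.

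**Figure D3:**
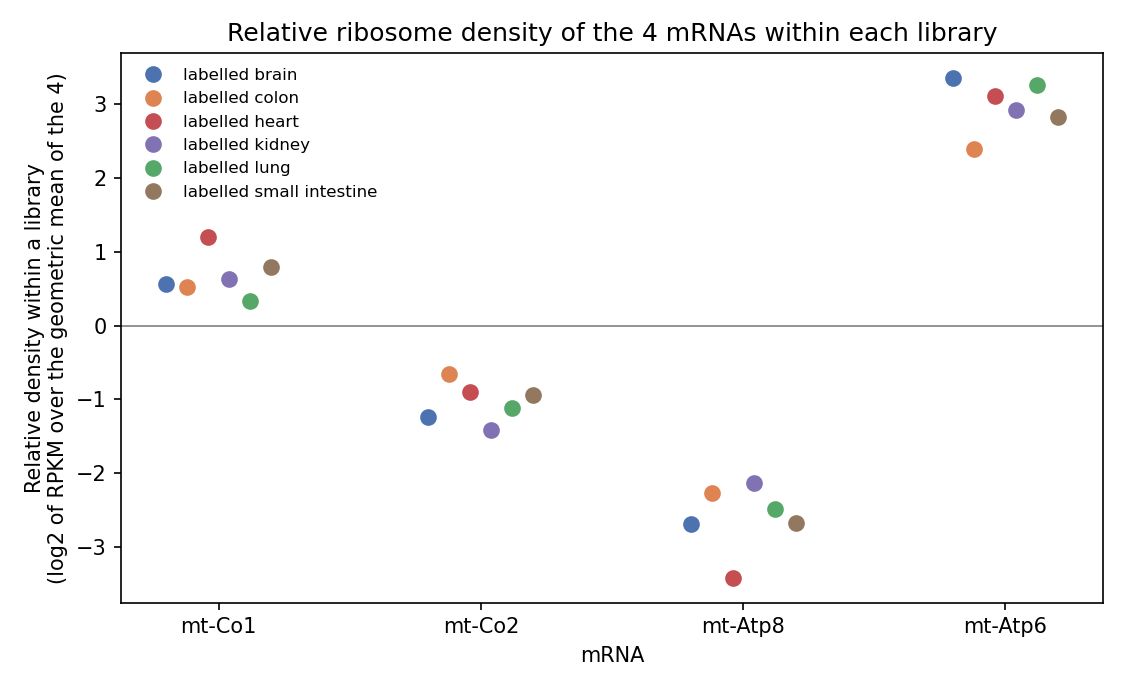
Density of each mRNA relative to the geometric mean of the 4 in the same library (log2, vertical axis), with 1 point per library and the 4 mRNAs along the horizontal axis. The 4 groups of points do not overlap, and the heart-labelled library lies highest for mt-Co1 (1.20) and lowest for mt-Atp8 (-3.41).

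The ratios between the mRNAs varied among libraries by more than counting error. The mt-Co1 over mt-Co2 ratio within complex IV ran from 2.27 in the colon-labelled library (95% interval 2.20 to 2.33) to 4.27 in the heart-labelled library (4.19 to 4.35). The mt-Atp6 over mt-Co1 ratio was 7.54 in the lung-labelled library and 6.89 in the brain-labelled library, and lay between 3.63 (colon) and 4.90 (kidney) in the other 4. The lung-labelled library, lowest in all 4 levels, thus had the highest mt-Atp6 relative to mt-Co1, and its interval (7.39 to 7.69) did not overlap that of any other library.

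The widest ratio was that within complex V, between the 2 overlapping frames. The mt-Atp6 over mt-Atp8 ratio was 92.1 in the heart-labelled library (85.3 to 99.5), 65.7 in the brain-labelled library (60.7 to 71.1), 53.3 in the lung-labelled library (47.0 to 60.5), 44.9 in the small intestine-labelled library (41.1 to 49.1), 33.3 in the kidney-labelled library (31.6 to 35.1) and 25.2 in the colon-labelled library (23.2 to 27.3). Among neighbours in this order only the intervals of the libraries labelled lung and small intestine overlapped. The heart value was 3.66-fold that of the colon-labelled library. Since the authors kept only reads with 1 alignment, reads wholly inside the shared stretch may have been lost from both mRNAs. With lengths counted as the start positions of unique 29-base windows, an alternative chosen after seeing the data, the ratios were 78.4 in heart, 55.9 in the brain-labelled library, 45.4 in lung, 38.2 in the small intestine-labelled library, 28.3 in the kidney-labelled library and 21.4 in the colon-labelled library, in the same order.

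**Figure D4:**
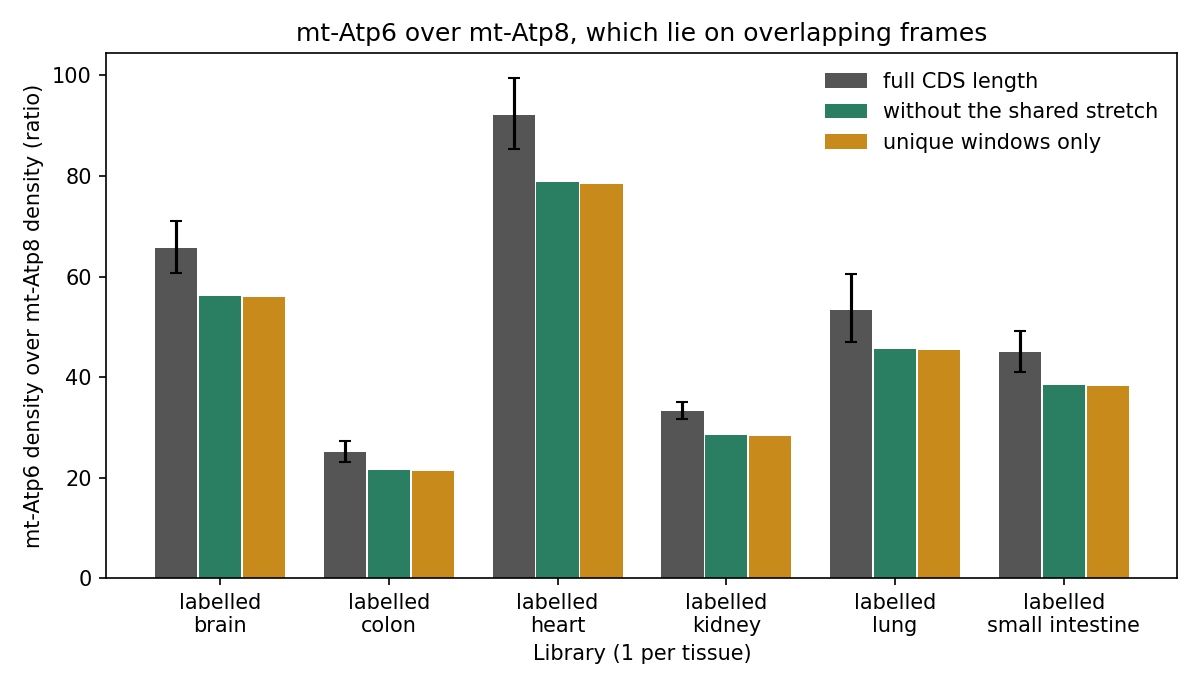
Ratio of mt-Atp6 to mt-Atp8 density (vertical axis, from 0) in each library with 3 ways of counting length; error bars on the grey bars are 95% intervals of counting error. The ratio is 92.1 in the heart-labelled library and 25.2 in the colon-labelled library with the full CDS length, and the order of the libraries is the same for the 3 lengths.

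The mRNAs also differed in features of sequence. Under the mitochondrial code, ATA is read as methionine and TGA as tryptophan, and ATA made up 26 of the 31 methionine codons of mt-Co1, 13 of 16 in mt-Co2, 11 of 14 in mt-Atp6 and 2 of 3 in mt-Atp8. All tryptophan codons of the 4 were TGA, 17 in mt-Co1, 5 in mt-Co2 and 3 each in mt-Atp8 and mt-Atp6. The last base of the codon was G or C in 20.9% of codons in mt-Atp8, 24.8% in mt-Atp6, 28.4% in mt-Co1 and 31.3% in mt-Co2. The least dense mRNA, mt-Atp8, had the lowest value and was also the shortest, with 67 codons. The densest, mt-Atp6, had the next lowest value, and mt-Co2, which was less dense than mt-Co1, the highest. These values thus did not follow the order of density over the 4 mRNAs.

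The mitochondrially encoded complex I mRNAs, 6 of which had a row, are made from the same genome and are the nearest set for comparison. The complex IV and V mRNAs took 91.4% of all reads on the 10 listed mitochondrial mRNAs in the brain-labelled library, 89.9% in the kidney-labelled library, 87.4% in lung, 81.9% in the small intestine-labelled library, 77.4% in heart and 77.0% in the colon-labelled library. The summed share of complex I was thus 8.65% in the brain-labelled library and 23.0% in the colon-labelled library. Most of it was a single mRNA, mt-Nd6. This mRNA held 10168 of 17582 complex I reads in the brain-labelled library and 17609 of 26267 in the colon-labelled library. In heart it held 41665 of 98415, beside 38948 for mt-Nd5. The summed share thus mainly follows mt-Nd6 in the libraries labelled brain and colon, and does not describe each complex I mRNA. The range over libraries was 5.86-fold (mt-Nd4l) to 55.5-fold (mt-Nd1) for the complex I mRNAs, against 4.39-fold to 8.79-fold for the complex IV and V mRNAs. With 1 library per tissue the difference between the sets was not tested. In heart 6 of 6 complex I mRNAs were at least 2-fold above the median of the other libraries, beside 27.1% of all mRNAs, with a median log2 difference of 2.32, against 1.12 for the complex IV and V mRNAs. In lung 5 of 6 were at least 2-fold lower, beside 28.0% of all mRNAs. In the brain-labelled library 5 of 6 were also lower, beside 35.0%, while 0 of 4 complex IV and V mRNAs were. In the colon-labelled library 4 of 6 were at least 2-fold higher, beside 27.1%. The kidney-labelled library had 1 of 6 lower (24.4%) and the small intestine-labelled library 1 of 6 higher (32.3%).

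The nuclear-encoded subunits of the same complexes, taken from lists fixed by subunit name, were at least 2-fold higher in heart in larger shares than all mRNAs (27.1%). At least 2-fold higher in heart were 8 of 9 subunits of complex III, 14 of 17 of complex IV and 16 of 18 of complex V. The median log2 differences were 1.62, 2.33 and 2.60. In the colon-labelled library 2 of 9, 12 of 17 and 9 of 18 were at least 2-fold higher, beside 27.1% of all mRNAs. In the small intestine-labelled library 7 of 9, 8 of 17 and 2 of 18 were at least 2-fold lower, beside 27.7%. For complex III, whose mitochondrial member mt-Cytb had no row, the median density of the nuclear-encoded subunits was 557 RPKM in heart and 67.0 to 162 RPKM in the other 5 libraries. The densest of them, Uqcrh, which lies near the cytochrome c1 subunit, had 8652 RPKM in heart and 1774 RPKM (small intestine label) to 5760 RPKM (colon label) elsewhere. The sparsest by mean log2(RPKM + 1), Uqcrfs1, the Rieske iron-sulfur subunit, had 215 RPKM in heart and 0.157 RPKM, from 1 read, in lung. Cyc1 was lower than Uqcrfs1 in every library but lung, with 108 RPKM in heart and 20.3 RPKM in lung.

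In complex IV the densest nuclear-encoded subunit was Cox4i1, a regulatory subunit, with 11850 RPKM in heart and 1008 RPKM in lung, and the sparsest was Cox6b2, known from testis, with 0 to 20.7 RPKM. In complex V these were Atp5f1b, the catalytic beta subunit, with 6203 RPKM in heart and 516 RPKM in the kidney-labelled library, and Atp5mc2, which encodes the ring subunit c, with 45.8 RPKM in heart and 0.429 RPKM, from 2 reads, in the brain-labelled library. In lung the nuclear-encoded subunits were at least 2-fold lower for 1 of 9 of complex III, 8 of 17 of complex IV and 7 of 18 of complex V, beside 28.0% of all mRNAs, while the mitochondrial mRNAs were lower in 4 of 4. Of complex IV, 5 of 17 were at least 2-fold higher in lung (Cox4i2, Cox6a2, Cox6b2, Cox7a1 and Cox8b), beside 34.8% of all mRNAs. In the kidney-labelled library no nuclear-encoded subunit of complexes III, IV or V was at least 2-fold higher, beside 25.2% of all mRNAs. Its mitochondrial mRNAs stood at 1.43-fold (mt-Co2) to 2.86-fold (mt-Atp8), of which 1 of 4 passed the fold. The median log2 difference there was 0.86 for the mitochondrial mRNAs and -0.58, -0.04 and -0.10 for the nuclear-encoded subunits of complexes III, IV and V, against -0.03 over all mRNAs.

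The mean density of the 2 mitochondrial mRNAs of a complex was therefore set against the median of its nuclear-encoded subunits in the same library, a ratio free of depth. For complex V it was 80.1 in the kidney-labelled library, 54.7 in the brain-labelled library, 44.3 in the small intestine-labelled library, 23.2 in lung, 21.3 in the colon-labelled library and 18.7 in heart. The complex V mean was almost wholly mt-Atp6, with 36338 RPKM in heart beside 395 RPKM for mt-Atp8. Heart, highest in this mean and in the nuclear-encoded median, thus had the lowest ratio for complex V. With the geometric mean the lung value was 53.9, near the 54.6 of the small intestine-labelled library, and the order of the libraries was the same. For complex IV the ratio was 57.6 in the brain-labelled library, 46.5 in the kidney-labelled library, 28.2 in the small intestine-labelled library, 15.6 in the colon-labelled library, 11.0 in heart and 8.64 in lung. The complex IV order at the top depended both on the isoforms in the list and on the summary used. Without the tissue-specific isoforms the ratio was 23.7 in the kidney-labelled library and 11.3 in the brain-labelled library, and with the geometric mean of all subunits in place of the median it was 63.5 and 39.8. These ratios compare mitochondrial with cytosolic ribosomes, which the methods need not capture equally, so their level cannot be read. Whether this capture was the same in each library was not tested, and differences of the ratios among libraries may include it.

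**Figure D5:**
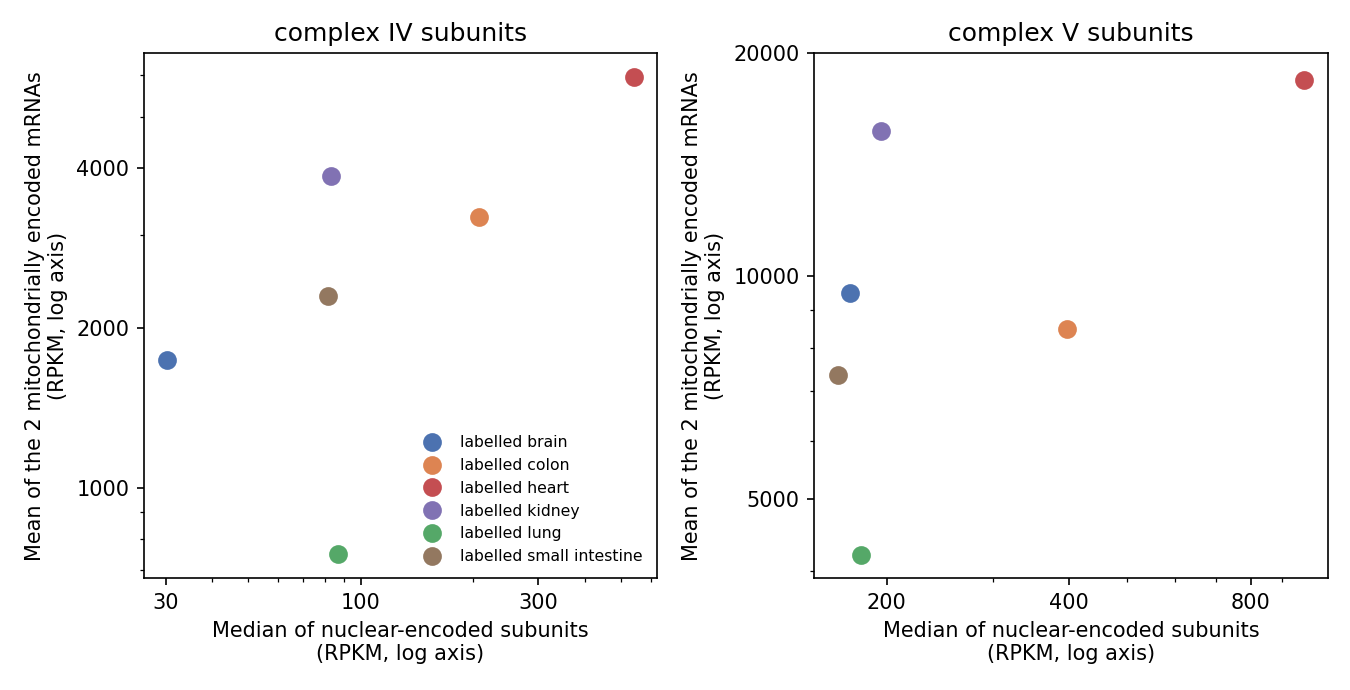
Mean density of the 2 listed mitochondrially encoded mRNAs (vertical, RPKM, log axis) against the median density of the nuclear-encoded subunits (horizontal, RPKM, log axis) of complex IV (left) and complex V (right), 1 point per library. The heart-labelled library is highest on both axes in both panels, and the kidney-labelled library combines the second highest mitochondrial value (15688 RPKM for complex V) with a nuclear median of 196 RPKM.

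The mRNAs whose pattern over the 6 libraries was most like the mean of the 4 were sought by the root mean square distance of centred log2(RPKM + 1) among 6966 mRNAs with a mean of at least 10 RPKM. The nearest 5 were Bcas2, a spliceosome-associated protein (0.115), Tle5, a transcriptional corepressor (0.285), Hint1, a small nucleotide hydrolase (0.333), the complex I mRNA mt-Nd4l (0.350) and Lsm12 (0.387), and the nuclear-encoded Mgat4b, a glycosyltransferase, followed (0.388). The median distance over all 6966 was 1.46. The members lay at 0.245 (mt-Co2), 0.269 (mt-Co1), 0.319 (mt-Atp6) and 0.411 (mt-Atp8) from their own mean. Of these nearest mRNAs only mt-Nd4l is mitochondrially encoded, and the other listed complex I mRNAs lay at places 21 (mt-Nd6) to 2615 (mt-Nd1) of the 6966. No nuclear-encoded subunit of the respiratory chain was among the nearest. So few of the 6966 are named here that this absence says little about those subunits.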

How the data were processed

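Ribo-seq reads came from 6 mouse tissue libraries, 1 per label. Per the labels, lysates were digested with RNase I, a gel band of about 25 to 35 nucleotides was cut, and cDNA was made after poly(A) tailing with template switching; no isolation of ribosomes is described. The submitters' processing notes name Cutadapt, STAR and GRCm39. The methods, written for macrophage libraries, give read trimming, alignment to the longest CDS of each gene, removal of multi-mapped reads and P-site assignment. The RPKM values were deposited by the authors per protein-coding mRNA, with the CDS length in the row name. Multiplied by this length, 100% of values gave whole reads (within 0.01), and these reads were used for depth and intervals.

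Gene symbols matched 18424 of 18437 identifiers through the GENCODE M39 annotation of GRCm39, the build named by the submitters. Sequences were read from that assembly. Intervals were exact Poisson (RPKM), Wilson (shares) and from the log of a ratio of counts (ratios), all at 95%. The calculation of reads was tested on data simulated with the same formula, which checks the code and not the deposited values. The pseudocount was 1 where log2(RPKM + 1) is given. A 2-fold difference was counted among mRNAs with a mean of at least 1 RPKM. The text names the members, the 5 nearest mRNAs by pattern, 4 tissue isoforms of complex IV, and markers where a label is in doubt. It also names the densest and sparsest mRNA of each nuclear list by mean log2(RPKM + 1). The members, lists and rules were chosen with earlier results of these data known. Python 3.11.15, numpy 2.4.6, scipy 1.17.1 and pandas 2.3.3 were used.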

Additional observations from a re-analysis of the deposited data

How the results depend on the processing

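No paired analysis was possible because each label has 1 library and no test was made. Leaving out a replicate was not possible for the same reason. Of the recomputed values, 70 stayed within counting error or, for counts, within 1.5 times the reported one, 52 moved further, 8 counts were lower and 7 higher by more than that, and 1 value changed sign. Many of the 70 were counts of 0 that stayed at 0. The ratio of summed density with heart and lung alone was the same by construction, as these were already the highest and lowest libraries. The 70 are therefore no measure of how stable the results are. The share of reads on the 4 mRNAs, for the libraries in alphabetical order of their labels (brain first, small intestine last), was 2.03%, 2.42%, 5.31%, 4.87%, 0.848% and 2.07% without the 10 nuclear-encoded mRNAs with most reads, and 2.62%, 2.73%, 5.06%, 5.46%, 1.23% and 2.61% of summed RPKM, where kidney passed heart. Without Kri1 it was 1.78%, 2.09%, 4.15%, 4.04% and 1.86% in those labelled brain, colon, heart, kidney and small intestine. Without mt-Atp8 it was 1.93% in the colon-labelled library and 3.13% in the kidney-labelled library. The highest over lowest summed density was 5.04 without Kri1, with kidney highest in place of heart, and 7.63 with size factors. The median relative density (log2) without the shared stretch was 0.49 for mt-Co1, -1.13 for mt-Co2 and -2.36 for mt-Atp8. With unique windows it was 0.50, -1.10 and -2.38, and 2.98 for mt-Atp6. Relative to mt-Co1 it was -1.77 for mt-Co2, -3.04 for mt-Atp8 and 2.16 for mt-Atp6. Relative to all 10 listed mitochondrial mRNAs it was 2.17 for mt-Co1, -0.76 for mt-Atp8, 4.64 for mt-Atp6 and, with its sign turned because the reference is lower, 0.72 for mt-Co2. Counts past the fold at 1.5-fold were 2 lower in the brain-labelled library, beside 40.5% of all mRNAs. They were 2 higher in the colon-labelled library, beside 36.4%, and 3 higher in the kidney-labelled library, beside 32.0%. At 3-fold, 0 were higher in those labelled colon, heart and kidney, beside 18.2%, 20.3% and 19.1%. In lung 2 were lower at 3-fold, beside 24.6%. With size factors the counts at 2-fold were 1 lower in brain (beside 36.1% of all mRNAs), 0 higher in colon (23.7%) and 2 higher in kidney (28.4%). Without Kri1 the same 3 counts were 1, 0 and 2, beside 36.5%, 26.2% and 30.0%, while mt-Co2 in heart fell to 1.85-fold. The mitochondrial over nuclear ratio with the geometric mean, in the order of libraries above, was 39.8, 18.3, 13.6, 63.5, 7.39 and 40.4 for complex IV and 79.8, 26.0, 23.0, 107.7, 53.9 and 54.6 for complex V; without tissue-specific isoforms complex IV gave 11.3, 10.5, 10.9, 23.7, 7.80 and 15.3. Of the 5 mRNAs nearest by pattern, 2 were shared when the minimum mean was 1 RPKM, both over all mRNAs and over nuclear-encoded ones. Where no cause is named it was not tested. Depth limits mt-Atp8 most, with 241 reads in lung.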

Other observations

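Nuclear-encoded isoforms of complex IV differed among the libraries more than the mitochondrially encoded core subunits. Cox4i2, known as the lung isoform of Cox4, had 2427 RPKM in lung and 23.1 to 89.8 RPKM in the other 5 libraries, and it stood at 2.41-fold its partner Cox4i1 in lung and at 0.00757 of it in heart. The muscle isoform Cox6a2 had 1202 RPKM in heart, 12.5-fold its partner Cox6a1, and 86.7 RPKM in lung, 1.37-fold. The 3 heart markers, none of them at 0 reads in any library, summed to 477 RPKM in lung, 8.80 to 175 RPKM in the libraries with the other 4 labels and 30711 RPKM in heart, and their part in the lung value was not tested. Cox8b had 1650 RPKM in heart against 508 RPKM for Cox8a, a ratio of 3.25, and 0 reads in the brain-labelled library. Cox7a1 had 309 RPKM in heart and 335 RPKM for Cox7a2, a ratio of 0.924. This ratio was 1.23 in the brain-labelled library (from 86 and 65 reads) and 1.07 in lung (from 55 and 48 reads). With so few reads, whether these 2 ratios differ from that in heart beyond counting error was not tested. In the remaining libraries it was 0.00691 (small intestine) to 0.111 (colon).

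Of 16 nuclear-encoded factors of mitochondrial transcription and translation, 12 were at least 2-fold higher in heart than the median of the other libraries, beside 27.1% of all mRNAs, with a median log2 difference of 1.46. The densest was Tufm, the mitochondrial elongation factor Tu, at 167 RPKM in heart and 31.3 to 114 RPKM elsewhere, and the sparsest was Tfb2m, a mitochondrial transcription factor, at 8.23 RPKM in heart and 0 reads in lung. Of 20 assembly factors that passed the minimum, 12 were at least 2-fold higher in heart, beside the same 27.1%. The densest of the list, Pet100, was highest in the kidney-labelled library (281 RPKM). The sparsest, Cox18, had 7 reads in heart and 0 in the other 5 libraries. In lung 4 of the 16 expression factors and 6 of the 20 assembly factors were at least 2-fold lower, against 28.0% of all mRNAs.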
